A study of Mus musculus with 8 samples.

Results

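Serpins are a superfamily of proteins, most of which block serine proteases by acting as a bait substrate that traps the protease in a dead complex, while a few instead carry hormones or help other proteins fold. They are divided into clades that are named by letter. Clade a holds the secreted α1-antitrypsin and antichymotrypsin families, which in mice have multiplied into tandem copies on chromosome 12, and clade b holds serpins that mostly stay inside cells. The remaining clades hold single genes or pairs that control clotting, fibrinolysis, complement and collagen folding.

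The serpin superfamily was taken as every gene whose name on the array begins with Serpin, which gave 54 of 27962 gene names, measured by 73 noncontrol probes. Clade a had 20 genes, clade b had 24, and clades c to i had 10. Gene expression was compared in oviducts of adult CD-1 mice that had received daily subcutaneous injections on PND1–PND5, either of the corn oil vehicle (control, n = 4) or of genistein (Gen), an estrogenic isoflavone of soy, at 50 mg/kg/day (n = 4). At 6–8 weeks of age all of the mice were superovulated and mated. On GD2, 48 hr after hCG, their oviducts were collected and cleared of embryos. RNA was labeled with Cy3 and hybridized to Agilent whole mouse genome arrays, 1 array per biological replicate. Each replicate is taken here as both oviducts of 1 mouse. The paper states this for its adult RT-PCR samples but not for its arrays. The tissue is a mixture of cells, so fewer cells of a type and less RNA per cell cannot be told apart. The control arrays shared 1 slide and the Gen arrays a second slide, and an effect of the slide cannot be told apart from one of treatment.

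Signals below are processed intensities in arbitrary units, scaled so that the 75th percentile of the log2 signals is the same on all 8 arrays. They compare the same probe between arrays and do not rank genes by abundance. A probe was tested where it was well above background on at least 4 of the 8 arrays, a rule that ignores the groups, and a change was called at a Benjamini-Hochberg adjusted p under 0.05 in limma over all 29552 tested probes. The number of probes well above background was 25359–28934 on control arrays and 29527–31480 on Gen arrays. The lowest signal that was well above background was 28.5 to 65.9 on control arrays and 14.5 to 20.9 on Gen arrays. A dim probe of equal signal can therefore be well above background on Gen arrays only. Of the 7909 probes that were not well above background on any array, 5172 had every Gen signal below every control signal, and so did 10 of 13 such serpin genes; these probes were left out of the tests.

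Of the 54 serpin genes, 37 were tested, 13 were not well above background on any array, and 4 were on 1 to 3 arrays. In Gen-treated mice 4 of the 37 were called lower (background over all tested probes, 0.406%) and 2 were called higher (background, 0.491%). The genes called lower were Serpina1b, Serpina1d, Serpina1e and Serpina11, and those called higher were Serpina3a and Serpind1. Serpina1b, Serpina1d and Serpina1e are close copies whose probes may share signal, so the count of lower genes may hold fewer separate changes. The call of Serpind1, which was well above background on 0 control and 4 Gen arrays, was lost when low signals were floored or background was corrected in another way. Every Gen array was above every control array for 4 of the 37 genes (background, 5.91%) and below for 5 (background, 6.43%). Serpina3a, Serpina5 and Serpind1 were well above background on 2, 1 and 0 control arrays, so they entered the test only with their Gen arrays, and the counts of higher genes carry that selection. The median log2 fold change was -0.06 over the tested serpins and 0.02 over all tested probes, and 28 of the 37 serpins differed by less than 1 log2 unit. Of the 6 called genes 5, those of clade a, are together with Serpina5 also in the study's own list of altered genes, which was drawn from these arrays, so that list is not independent evidence.

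**Figure D1:**
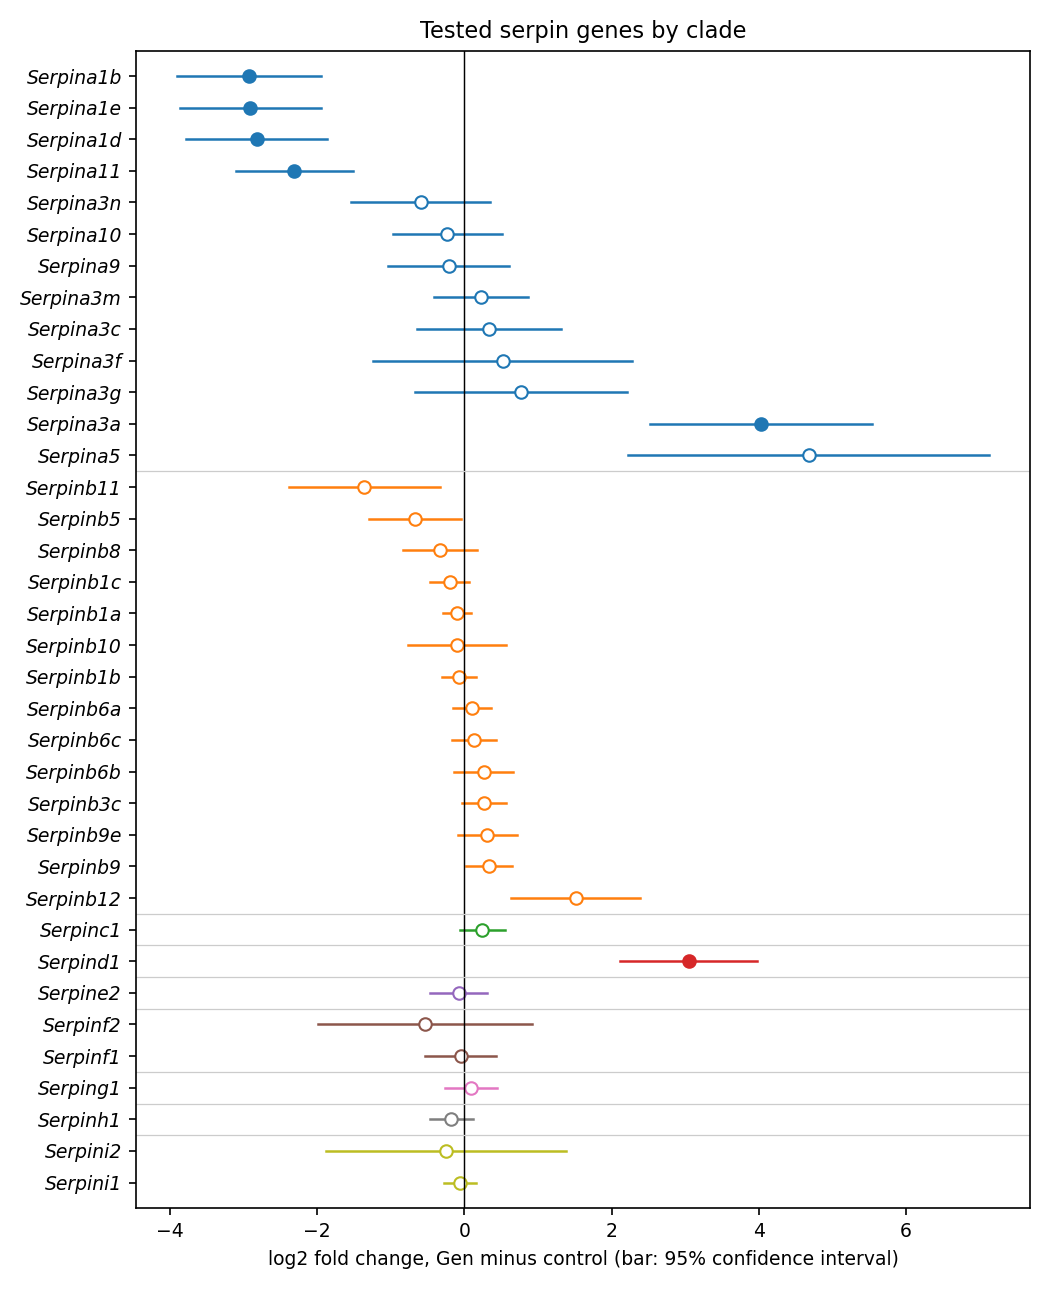
Log2 fold change (Gen minus control) of 36 of the 37 tested serpin genes, grouped by clade and ordered within it, with 95% confidence intervals from limma; filled circles mark the 6 genes called. The wide departures are in clade a, from -2.92 for Serpina1b to 4.68 for Serpina5, and in Serpind1 of clade d, whose fitted value of 3.04 rests on control signals that were not well above background.

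Most calls were lost when a single array was left out. With control replicate 2, 3 or 4 or Gen replicate 3 or 4 left out, limma called 0 of the 37 serpin genes. In these fits 9 to 11 of them had an unadjusted limma p under 0.05, as did 3882 to 5367 of 29552 tested probes. Without control replicate 1, 5 of the 6 calls stayed (Serpina1b, Serpina1d, Serpina1e, Serpina11 and Serpind1) and Serpina5 was called as well, without Gen replicate 1 only Serpind1 was called, and without Gen replicate 2 only Serpina1d.

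Serpina1 encodes α1-antitrypsin, a secreted inhibitor of neutrophil elastase, and the mouse genome carries several nearly identical copies of it. Serpina1b, Serpina1d and Serpina1e were measured, while Serpina1a and Serpina1c were not analysed here because no probe carries those names. The signal of Serpina1b was 3458, 7182, 8245 and 4958 on control arrays 1 to 4, and 682, 353, 1311 and 973 on Gen arrays 1 to 4. The lowest control signal was 3458 and the highest Gen signal 1311, so the groups did not overlap. The log2 fold change was -2.92 ± 0.43 (SE, n = 4 per group; adjusted p = 0.0328 in limma), with an SD of 0.56 among controls and 0.82 among Gen-treated mice, which is a 7.58-fold lower signal.

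Serpina1d gave 54961, 94419, 89979 and 68485 on the control arrays and 9629, 4623, 18053 and 15999 on the Gen arrays. It fell by 2.82 ± 0.42 on the log2 scale (SE; adjusted p = 0.0341), a 7.06-fold lower signal, and no array was saturated. Serpina1e gave 2607, 5683, 6684 and 4183 on the control arrays and 604, 301, 1079 and 663 on the Gen arrays. It fell by 2.91 ± 0.42 (SE; adjusted p = 0.0315), a 7.52-fold lower signal. The order of the Gen arrays was the same for all 3 probes, with replicate 2 lowest, then replicates 1 and 4, and replicate 3 highest. Control replicate 1 was the lowest control for each. After each probe was centered on its own mean, the largest gap between any pair of these probes on any array was 0.49 log2 units.

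The probes of Serpina1b and Serpina1e are shown because copies this close can share signal. Both are sense sequences of 60 bases, placed by the array design on the minus strand of the mouse build mm7. The Serpina1b probe spans 1500 bases of chr12:101224607-101226106, so it crosses an intron, and the Serpina1e probe lies unbroken at chr12:101445204-101445263.
Serpina1b: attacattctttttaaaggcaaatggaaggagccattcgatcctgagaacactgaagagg
Serpina1e: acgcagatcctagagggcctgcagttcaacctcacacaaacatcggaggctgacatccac
The longest run of bases shared by any pair of the Serpina1b, Serpina1d and Serpina1e probes was 6, so they read different stretches of the transcripts. Whether each probe also binds the RNA of the other copies was not tested, so the lower signals of the 3 probes cannot be divided among the copies.

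In the reference genome the promoters of these copies are nearly identical too. The sequences of the CD-1 mice themselves were not examined. In RefSeq sequences of GRCm38.p6, 44 of the 54 serpin genes had an entry, and the bases before the annotated start were examined over 250 bases. The 100 bases below, on the minus strand of chromosome 12, are shown for the 3 measured copies and hold the letters GTTAAT in capitals, a half-site of the HNF1 motif, a transcription factor known for driving Serpina1 in liver. They lie at chr12:103738201-103738300 (Serpina1b), chr12:103773635-103773734 (Serpina1d) and chr12:103956961-103957060 (Serpina1e).
Serpina1b: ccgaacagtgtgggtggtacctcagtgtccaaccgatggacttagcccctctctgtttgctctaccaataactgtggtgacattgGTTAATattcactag
Serpina1d: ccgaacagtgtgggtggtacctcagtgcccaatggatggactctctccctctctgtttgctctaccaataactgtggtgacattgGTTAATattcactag
Serpina1e: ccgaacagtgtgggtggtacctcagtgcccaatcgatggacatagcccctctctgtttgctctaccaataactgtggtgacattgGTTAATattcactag
Serpina1b differed from Serpina1d at 7 of the 100 positions and from Serpina1e at 3, and Serpina1d differed from Serpina1e at 6. The annotated start follows the first base of the capitals by 26, 16 and 78 bases, respectively. On either strand, GTTAAT occurred in 6.43% of the 32851 promoters. It occurred in 9 of the 44 serpin genes, which had 52 promoter windows, so the share per promoter and the count per gene differ in unit. The 9 include the 3 nearly identical Serpina1 copies. They also include Serpina3c, Serpinb8 and Serpini2, which were not called. The longer run GTTAATATTCAC, which contains GTTAAT, was taken from the Serpina1b promoter and used to align the windows above. It occurred in 5 promoters (0.0152%), those of Serpina1a, Serpina1b, Serpina1c, Serpina1d and Serpina1e. Because it was chosen from 1 of these nearly identical copies, its presence in the others is not independent evidence of shared regulation. The promoters of Serpina11, Serpina5, Serpina3a and Serpind1 did not hold GTTAAT in this window.

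Serpina11, the next gene of the cluster after Serpina1e, fell as well. Its signal was 149, 339, 171 and 294 on control arrays 1 to 4 and 30.2, 56.0, 68.1 and 36.4 on Gen arrays 1 to 4, well above background on all 8. The log2 fold change was -2.31 ± 0.35 (SE; adjusted p = 0.0367), with SDs of 0.58 and 0.54, and the groups did not overlap. With normexp background correction the log2 fold change was -1.52 and the call stayed. As for the 3 Serpina1 copies, control replicate 1 was the lowest control and Gen replicate 3 the highest Gen array, but the lowest Gen array was replicate 1 rather than replicate 2. Its probe, shown because the gene is less well described than its neighbors, lies at chr12:101476966-101477025 (mm7, minus strand).
Serpina11: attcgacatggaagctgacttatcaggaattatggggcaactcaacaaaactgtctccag

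**Figure D2:**
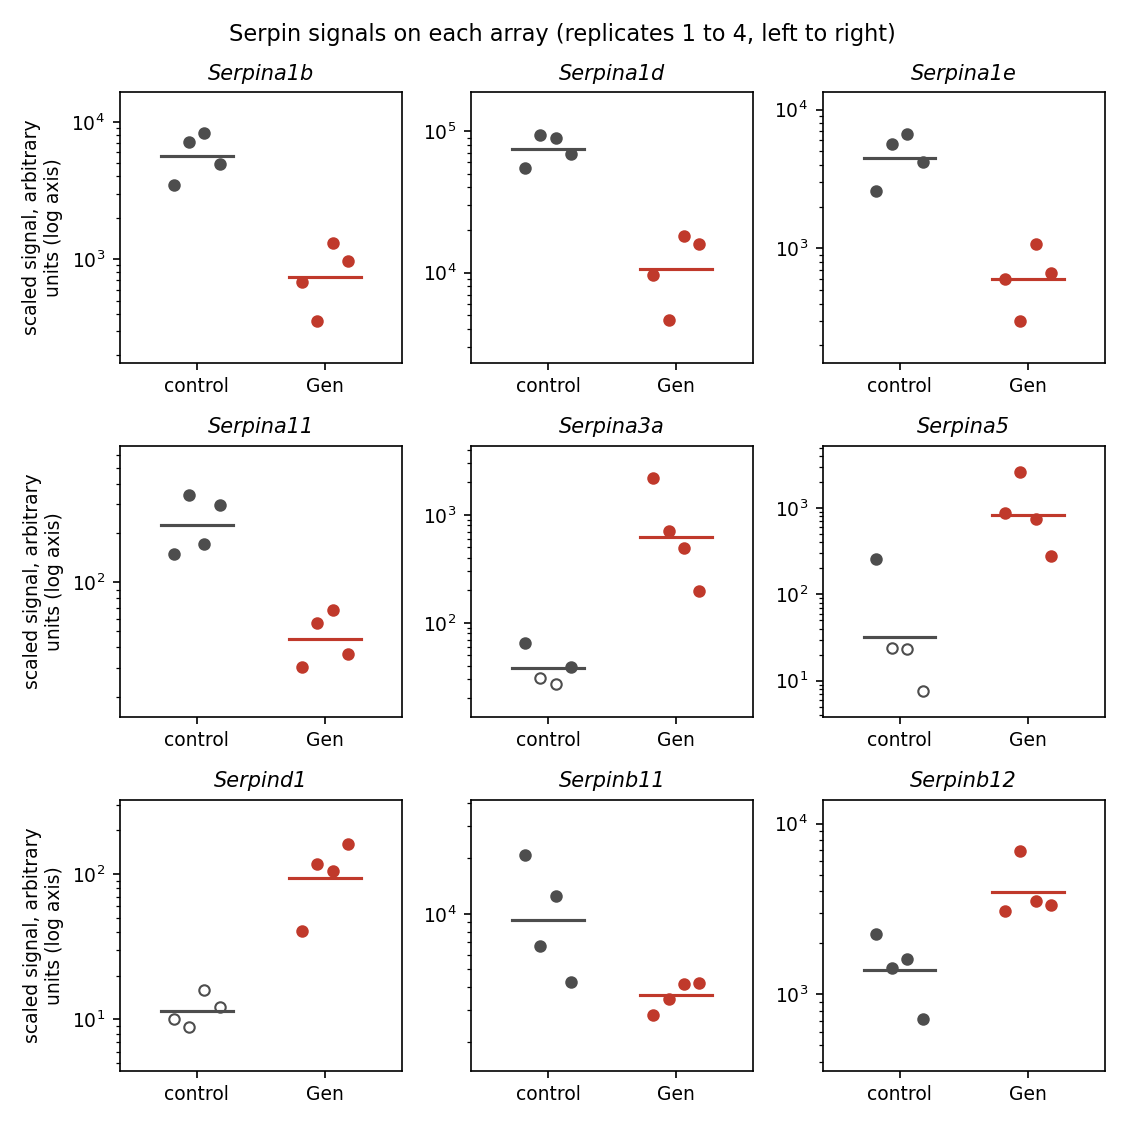
Scaled signal (arbitrary units, log axis) of 9 serpin genes on each array, with replicates 1 to 4 from left to right within a group and a line at the mean of the log2 signals; open circles are arrays on which the probe was not well above background. The groups do not overlap in any panel, but the gap is narrow for Serpinb11, whose lowest control signal is 4281 and highest Gen signal 4229.

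Serpina3a was called higher. It is a member of the antichymotrypsin family, and its signal was 65.4, 31.1, 27.0 and 38.6 on the control arrays and 2172, 709, 498 and 196 on the Gen arrays. It was well above background on control replicates 1 and 4 and on every Gen array. The log2 fold change was 4.03 ± 0.66 (SE; adjusted p = 0.0433), with an SD of 0.56 among controls and 1.43 among Gen-treated mice. With normexp background correction it was 2.58 (adjusted p = 0.0493), and without Gen replicate 1 it was 3.43 (adjusted p = 0.0613). The lowest Gen array was above the highest control array, and the Gen arrays themselves spanned from 196 to 2172.

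Serpina5 is the protein C inhibitor, which blocks activated protein C and other trypsin-like proteases and is prominent in the male reproductive tract. Its signal was 257, 24.1, 23.5 and 7.67 on the control arrays, of which only replicate 1 was well above background, and 870, 2620, 754 and 278 on the Gen arrays. The groups did not overlap, but control replicate 1 was close to Gen replicate 4. The log2 fold change of 4.68 ± 1.07 (SE; 95% interval from 2.23 to 7.13) had an adjusted p of 0.0818 and was not called. Without control replicate 1 it was called, with an adjusted p of 0.035 and a log2 fold change of 5.67. The log2 fold change was 3.98 without control replicate 4, 3.71 with the floor under low signals and 2.82 with normexp correction; over all alternatives in which it was tested the adjusted p ran from 0.000141 to 0.193. The other probe of Serpina5 was well above background on 3 Gen arrays and no control array, and was not tested. It gave 29.9, 7.81, 15.1 and 6.65 on the control arrays and 96.1, 306, 86.9 and 15.1 on the Gen arrays, so the groups overlapped. Gen replicate 2 was highest and Gen replicate 4 lowest of the Gen arrays on both probes. This second probe crosses an intron at chr12:101598175-101599524 (mm7, plus strand), and is shown because it reads the gene apart from the tested probe.
Serpina5: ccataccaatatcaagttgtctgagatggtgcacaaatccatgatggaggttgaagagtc

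The other tested genes of clade a did not pass the test. In the antichymotrypsin family the log2 fold changes were 0.33 for Serpina3c, 0.52 for Serpina3f, 0.77 for Serpina3g, 0.23 for Serpina3m and -0.60 for Serpina3n. Serpina3g gave 1416, 1437, 5369 and 1448 on the control arrays and 2144, 5270, 7918 and 1494 on the Gen arrays, so a high signal was seen on control replicate 3 and on Gen replicates 2 and 3. Serpina3f was highest on the same arrays, at 269, 196 and 300. On control replicate 3, S100a9, a neutrophil gene, was 24568 against 336 to 4367 on the other controls; its part in these signals was not tested. Serpina9, expressed by germinal center B cells, and Serpina10, which inhibits clotting factor X together with protein Z, had log2 fold changes of -0.22 and -0.23. The hormone carrier Serpina6, which binds corticosteroids, was well above background on 2 Gen arrays only, with signals that overlapped between the groups. Serpina7, which binds thyroxine, was well above background on none.

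Of the 20 clade a genes 19 lie in 1 cluster that spans 799 kb of chromosome 12 (chr12:101109198-101908089 in mm7), and Serpina7 is on the X chromosome. Measured from the Serpina10 probe at the first end, the probes of the genes that fell lie at 115 kb (Serpina1b), 149 kb (Serpina1d), 336 kb (Serpina1e) and 368 kb (Serpina11), all on the minus strand. Serpina5 and Serpina3a are neighbors at 491 kb and 507 kb on the plus strand. Between Serpina11 and Serpina5 are Serpina9, with a log2 fold change of -0.22 ± 0.36 (SE), and Serpina12 and Serpina4-ps1, which were not well above background on any array. The next genes after Serpina3a were Serpina3b, also not well above background on any array, and Serpina3c, at 0.33 ± 0.43. A predicted gene named LOC673641, described on the array as similar to α1-antitrypsin, lies between Serpina1d and Serpina1e. Its probe was dim, at 77.4, 132, 111 and 123 on the control arrays and 138, 93.5, 69.7 and 77.3 on the Gen arrays. The log2 fold change of LOC673641 was -0.25 ± 0.25 (SE; adjusted p = 0.604 in limma), with a 95% interval from -0.82 to 0.32. The intervals of both neighbors of LOC673641 ended below that, at -1.86 for Serpina1d and -1.95 for Serpina1e. The difference between the genes was not tested. Of 6 probed transcripts inside the cluster that do not carry a serpin name 3 were tested, and of the 5 nearest genes on each side 7 of 10 were. None of these neighbors was called in limma (background, 0.491% higher and 0.406% lower). Their log2 fold changes ran from -0.64 to 0.22 inside the cluster and from -0.58 to 0.09 outside it. Of the 7 tested genes outside it 3 had every Gen array below every control array (background, 6.43%), which were Ifi27, Dicer1 and an unnamed transcript. Their log2 fold changes were -0.33, -0.46 and -0.58, and the median of the 7 was -0.23.

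**Figure D3:**
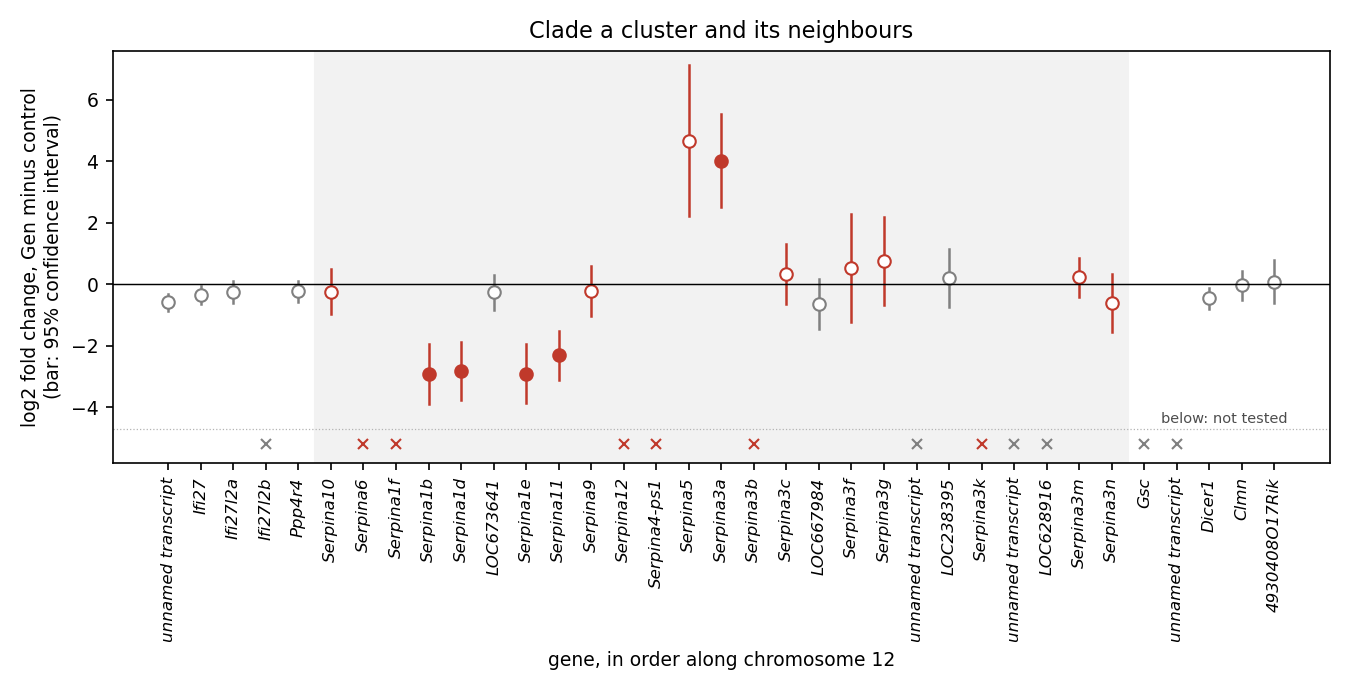
Log2 fold change (Gen minus control, with 95% confidence intervals) of genes in their order along chromosome 12, with serpins in red, other genes in gray, the cluster shaded, filled circles for calls at an adjusted p under 0.05, and crosses along the bottom for genes not tested. Serpina1b, Serpina1d, Serpina1e and Serpina11 lie between -2.92 and -2.31, Serpina5 and Serpina3a at 4.68 and 4.03, and the flanking genes between -0.58 and 0.09.

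Clade b had 14 tested genes of 24, and none was called in limma (background, 0.491% higher and 0.406% lower). Leaving out Serpinb11 and Serpinb12, the other 12 log2 fold changes ran from -0.67 to 0.33. Serpinb12, a clade b member known from epithelia, gave 2255, 1418, 1615 and 711 on the control arrays and 3052, 6871, 3506 and 3336 on the Gen arrays. Every Gen array was above every control array, with a log2 fold change of 1.52 ± 0.38 (SE; adjusted p = 0.102). Its other probe gave 1.39 ± 0.37 (adjusted p = 0.111), and its groups did not overlap either. Serpinb11 had the opposite sign, at 20770, 6694, 12523 and 4281 on the control arrays and 2806, 3453, 4161 and 4229 on the Gen arrays. The controls spread widely (SD, 1.00 log2 units, against 0.28 in Gen-treated mice), and the log2 fold change was -1.36 ± 0.45 (adjusted p = 0.166).

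Serpinb5, or maspin, which is not an inhibitor and is known as a tumor suppressor of epithelia, had a log2 fold change of -0.67 ± 0.27 (SE; adjusted p = 0.239). These 3 genes lie on chromosome 1, where 6 of the 12 clade b genes were tested, with a median of -0.21. On chromosome 13, 8 of 12 were tested and the log2 fold changes ran from -0.20 to 0.33. That group includes Serpinb1a, an inhibitor of neutrophil proteases, at -0.10 ± 0.08, Serpinb6a, an inhibitor of trypsin-like proteases, at 0.11 ± 0.11, and Serpinb9, the inhibitor of granzyme B, at 0.33 ± 0.13 (adjusted p = 0.236). The second probe of Serpinb9 gave -0.07 and that of Serpinb1b gave 0.78 against -0.07 for the first, while those of Serpinb8 gave -0.33 and 0.08, so the probes of these 3 genes had opposite signs. Of the 8 serpin genes with 2 tested probes 5 had the same sign on both. Serpinb3a, Serpinb3b, Serpinb3d, Serpinb7, Serpinb9b, Serpinb9c, Serpinb9d and Serpinb9g were not well above background on any array. Serpinb13 was on control replicate 3 only, and Serpinb2 on 3 Gen arrays. The mean signals of Serpinb2 were alike, at 19.7 in controls and 19.9 in Gen-treated mice.

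Serpind1, of clade d, is heparin cofactor II, an inhibitor of thrombin that dermatan sulfate activates. Its signal was 10.1, 8.89, 15.9 and 12.1 on the control arrays, none of them well above background, and 40.4, 118, 104 and 162 on the Gen arrays, all of them well above background. Against the lowest signal that was well above background on each control array, it was at least 2.38-fold higher in Gen-treated mice. The adjusted p of 0.0309 in limma belongs to the fitted log2 fold change of 3.04, which uses the control signals as read. When every signal below the lowest well-above-background level of its array was raised to that level, the log2 fold change was 1.25 and the adjusted p 0.186. With normexp background correction they were 0.88 and 0.0574, so the call was lost both ways, and over all alternatives in which it was tested the adjusted p ran from 1.76e-05 to 0.186.

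The tested genes of clades c, e, f, g, h and i did not pass the test. Serpinc1, antithrombin, had a log2 fold change of 0.24 ± 0.13 (SE) on the brighter probe, where it gave 65.9, 82.1, 63.1 and 75.6 on the control arrays and 97.2, 90.4, 73.6 and 78.5 on the Gen arrays. Its other probe gave 1.61 ± 0.50 (adjusted p = 0.151) and was well above background on 1 control array and 4 Gen arrays. The size of the difference therefore depended on the probe.

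Serpine2, protease nexin-1, which blocks thrombin and plasminogen activators, gave 1190, 1128, 1738 and 1277 on the control arrays and 1254, 1521, 1041 and 1205 on the Gen arrays, with a log2 fold change of -0.08 ± 0.17 (SE). The signals of the groups overlapped. Serpinf2, the inhibitor of plasmin, gave 28.6, 250, 34.3 and 39.4 on the control arrays and 41.8, 48.6, 36.6 and 29.4 on the Gen arrays, so its log2 fold change of -0.53 ± 0.64 came with a single high control. Serpinf1, or PEDF, which acts against blood vessel growth rather than as an inhibitor, gave 48650, 44646, 47754 and 42555 and then 33903, 55920, 33626 and 60052, a log2 fold change of -0.05 ± 0.21.

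Serping1, the inhibitor of complement C1, gave 20832, 21056, 26581 and 23647 on the control arrays and 19890, 26041, 22243 and 30766 on the Gen arrays, with a log2 fold change of 0.09 ± 0.16 (SE). Serpinh1, or HSP47, a chaperone of collagen, gave 126570, 121200, 136210 and 122480 on the control arrays and 95143, 133610, 100700 and 121840 on the Gen arrays, with a log2 fold change of -0.18 ± 0.13. The intervals of these differences ran from -0.27 to 0.45 and from -0.47 to 0.12, so changes of 1 log2 unit lie outside both. None of 5 collagen genes that Serpinh1 serves was called in limma (background, 0.491% higher and 0.406% lower). Serpini1, neuroserpin, gave 723, 714, 651 and 620 on the control arrays and 637, 627, 630 and 697 on the Gen arrays, a log2 fold change of -0.06 ± 0.09. Serpini2 gave 23.7, 29.7, 96.1 and 167 on the control arrays and 49.2, 24.4, 122 and 38.4 on the Gen arrays. Its difference of -0.25 ± 0.71 log2 units was smaller than its error.

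Proteases and protease-like genes, among them targets of serpins, with receptors and cofactors, were read from a list of 58 genes with a probe. Of these, 50 were tested. Whether serpins inhibit each member of the list was not tested. In Gen-treated mice 1 was called lower (background, 0.406%) and 0 were called higher in limma (background, 0.491%), while the median log2 fold change was 0.00. Every Gen array was above every control array for 3 of the 50, Prss35, F9 and Ctss (background, 5.91%), and below for 5, Klk11, Klk1, Klk8, St14 and Tmprss4 (background, 6.43%). The gene called was Klk11, a kallikrein of epithelia, at 259, 372, 306 and 332 on the control arrays and 191, 126, 178 and 127 on the Gen arrays, with a log2 fold change of -1.04 ± 0.18 (SE; adjusted p = 0.0469) and no overlap. Klk1, tissue kallikrein, had -0.90 ± 0.25 (adjusted p = 0.123), and its groups did not overlap. The largest positive log2 fold change was that of Prss35, a protease-like gene known from the ovary, which gave 59.4, 28.4, 195 and 12.8 on the control arrays and 959, 1551, 351 and 458 on the Gen arrays. Its log2 fold change was 3.95 ± 0.83 (adjusted p = 0.0718), and its groups did not overlap. Mbl2, a lectin that starts complement activation with the Masp proteases, and F10, clotting factor X, had 2.17 ± 0.86 (adjusted p = 0.224) and 1.27 ± 0.50 (adjusted p = 0.224), both with overlap.

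Among the groups of the list, the plasminogen genes ran from -0.46 to 0.43 on the log2 scale, the leukocyte proteases from -0.51 to 0.43 and the cathepsins from -0.30 to 0.47, and none was called in limma. The clotting genes had a median of 0.47 and the complement genes 0.52, with none called. Neutrophil elastase (Ela2), the main target of α1-antitrypsin, was not well above background on any array.

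Markers of ovarian cells also had higher mean signals on Gen arrays. Of 10 genes that mark steroid-producing and follicular cells of the ovary 9 were tested, and all 9 had higher means in Gen-treated mice. Of these 9, 4 had no overlap (background, 5.91%), although none was called in limma (background, 0.491% higher and 0.406% lower). Cyp11a1, the enzyme that begins steroid synthesis, gave 238, 354, 3903 and 271 on the control arrays and 23785, 21029, 4444 and 8710 on the Gen arrays. The summed signal of the list was 4307 to 29260 on control arrays and 33560 to 142300 on Gen arrays, while Foxl2, which marks granulosa cells, differed by 0.02. Control replicate 3 had the highest sum among controls, and on that array Serpina3a, Serpina5 and Serpind1 were not well above background, where the lowest signal that was well above it was 65.9. Across the Gen arrays Cyp11a1 was highest on replicate 1, as was Serpina3a, while Serpind1 was lowest there. The part of these cells in the higher signals of Serpina3a, Serpina5 and Serpind1 was not tested.

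**Figure D4:**
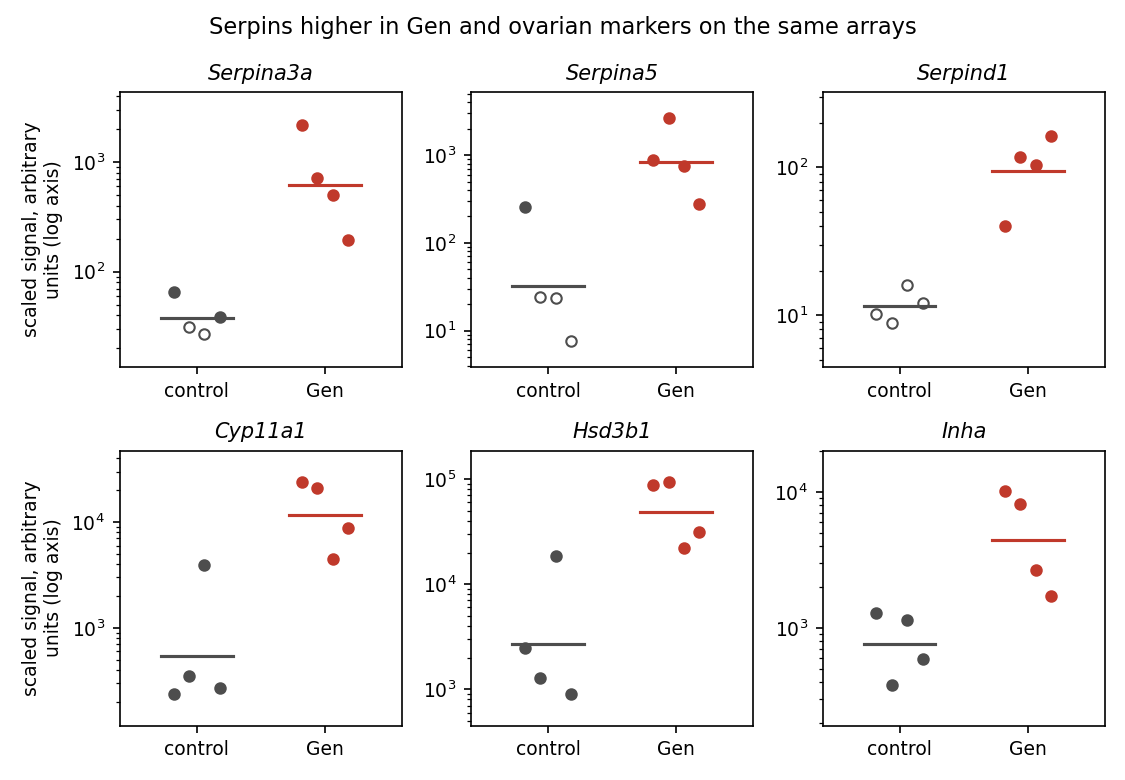
Scaled signal (arbitrary units, log axis) of Serpina3a, Serpina5 and Serpind1 above, and of the ovarian markers Cyp11a1, Hsd3b1 and Inha below, on the same arrays (replicates 1 to 4 from left to right; line at the mean of the log2 signals; open circles not well above background). On control replicate 3, the highest control for Cyp11a1 (3903), none of the 3 serpins was well above background. The lowest signal that was well above background on that array was 65.9, a higher limit than on any other array. The part of ovarian cells in the serpin signals was not tested.

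Liver, which makes most circulating serpins, was represented by 5 markers. Alb and Ttr were not well above background on any array, Ahsg differed by 0.15, Fgb was well above background on all Gen arrays and no control array, and Apoa1 on 3 Gen arrays (70.4, 152 and 21.0) and no control array. Weaker signals counted as well above background on Gen arrays than on control arrays. The summed signal of these 5 markers was 216 to 397 on control arrays and 291 to 1057 on Gen arrays. For myeloid cells 8 of 8 markers had higher means in Gen-treated mice, 3 of them with no overlap (background, 5.91%). Of these markers 1, Itgam, was called higher in limma (background, 0.491%), with a log2 fold change of 0.74 (adjusted p = 0.0451). The myeloid sums were 105000 to 180900 on control arrays and 167700 to 216600 on Gen arrays. No gene of the oviduct epithelium, smooth muscle or mast cell lists was called in limma (background, 0.491% higher and 0.406% lower), and the sums overlapped. Of 5 tested genes in each list, 2 of oviduct epithelium, 0 of smooth muscle and 1 of mast cells had higher means in Gen-treated mice. The smooth muscle median was -0.23 log2 units, with sums of 999600 to 1323000 on control arrays and 823400 to 1109000 on Gen arrays. The oviduct marker Ovgp1 differed by 0.06. For stratified squamous epithelium, which is known for clade b serpins, Krt6a, Ivl and Dsg3 were not well above background on any array, and the sums were 2827 to 3742 and 2484 to 3357.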

How the data were processed

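The authors deposited 1 Agilent Feature Extraction 9.5 output per array. Tissue was whole oviduct, from 4 control and 4 Gen biological replicates, each taken here as 1 mouse. The processed signal is a linear intensity, adjusted for background and detrended within the array but not scaled between arrays, and the deposited series table held the same intensity values. The later Rosetta Resolver steps of the methods were not applied. The 1639 control spots and outlier spots were left out, spots of 1 probe were averaged as log2 signals, and arrays were shifted to a common 75th percentile, the mean over the arrays. Probes well above background on at least 4 arrays were tested with lmFit and eBayes of limma 3.58.1 (R 4.3.3), with Benjamini-Hochberg adjustment over 29552 probes. For a gene with several probes, the one brightest on average over all arrays was used. Plots used matplotlib 3.10.9. The fit was tested on simulated data. Precision is limited by 4 arrays per group.

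Clades were read from gene names, and positions came from the array design (mm7, NCBI35). No transcript or protein sequences were used here. The members and lists were chosen with earlier results of these data known. Values on every array were given for called serpins, those in the study's list, the Serpina1 copies, the largest positive and negative log2 fold change in each clade, and serpins whose groups did not overlap with a change of at least 1 log2 unit; Serpina3g, Serpina3f and the second probes were added after their values were seen. For the protease list they were the called genes or, when under 5, the 5 largest changes. The 2 probes that match serpins by synonym but not by name (Serpine3 and Serpinb6a) were not used. Values of 1 tested serpin gene are not reported here.

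Alternatives were quantile normalization, no scaling, normexp (offset 50), a floor under low signals, other filters on dim probes, a robust fit with an intensity trend, the methods' t-test, a replicate block, outlier spots retained, averages over a gene's tested probes, the series table, and fits that left out single arrays.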

Additional observations from a re-analysis of the deposited data

Results flagged for a closer look

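In each group of 4 arrays, the gap between an extreme array and its nearest neighbor was divided by the range of the log2 signals and set against Dixon's 95% critical value. Of 74 sets of 4 signals from tested serpin genes 5 passed it, where chance passes about 1 in 20, or 3.7.

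Control replicate 3 was far above the other controls for Serpina3g (5369 against 1416 to 1448; ratio 0.983) and for Serpina3f (269 against 49.2 to 58.4; ratio 0.899). Control replicate 1 was below the others for Serpinb10 (132 against 208 to 219; ratio 0.896). Control replicate 2 was above the others for Serpinf2 (250 against 28.6 to 39.4; ratio 0.852). Gen replicate 4 was above the others for Serpini1 (697 against 627 to 637; ratio 0.853).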

How the results depend on the processing

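Serpina1b, Serpina1d, Serpina1e, Serpina11, Serpina3a, Serpina5, Serpind1, Serpinb11 and Serpinb12 kept their direction in every fit in which they were tested. The counts that moved by over 1.5 times are given here, and the cause was not tested. In the main fit 4 serpin genes were called lower and 2 higher, with 265 probes called in all (54.7% of them higher) and 1 gene of the protease list. Without the filter on dim probes the counts were 14 lower, 4 higher, 6674 probes and 11 protease genes, and 16 serpin genes had every Gen array below every control array. Without scaling, which moved the median of all tested probes to 0.26, they were 4 higher, 1023 probes (88.4% higher) and 5 protease genes. With normexp correction 1 serpin gene was higher, and 486 probes (36.6% higher) and 3 protease genes were called. The share of calls that were higher was 41.2% with quantile normalization and 41.4% with the floor, under which 1 serpin gene was higher. Where a probe had to be well above background on all 8 arrays, 0 serpin genes were called higher and 1 had every Gen array above every control array, because Serpina3a, Serpina5 and Serpind1 were then not tested. The intensity trend with a robust fit called 406 probes. The methods' t-test (the equal-variance form of their analysis of variance, without the error model) called 11 probes, 0 serpin genes in either direction and 0 protease genes after Benjamini-Hochberg adjustment; 7 serpin genes and 1746 probes had an unadjusted p under 0.01.

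The paper compared Gen-treated mice with control littermates, but the sample labels do not say which arrays share a litter. The deviations of same-numbered arrays from their group means correlated between -0.13 and 0.04. These correlations cannot settle whether the replicate numbers pair the samples. With the replicate block limma called 3 probes, 0 serpin genes in either direction and 0 protease genes. In that fit 10 serpin genes had an unadjusted p under 0.05, as did 4723 of 29552 tested probes.

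When single arrays were left out, the serpin genes called lower numbered 0 to 4 and those called higher 0 to 2, the probes called 2 to 274, and the protease genes 0 to 1. Serpin genes with every Gen array above every control array numbered 4 to 5, and with every Gen array below 5 to 7. The adjusted p of Serpina1b, Serpina1d, Serpina1e and Serpina11 then lay between 0.0333 and 0.095, and that of Serpina3a between 0.0502 and 0.111. Signal over background limits Serpina3a, Serpina5 and Serpind1 in controls.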
